A study of Mus musculus with 6 samples.

Results

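Receptor genes that B-cell precursors use to stay in, move within or leave the bone marrow were followed in small pre-B cells. The 9 members were taken by gene symbol from a count table of 49997 symbols, and all 9 were listed in it. They are the chemokine receptors Cxcr4, Cxcr5 and Ccr7, the sphingosine 1-phosphate receptor S1pr1, the integrin chains Itga4, Itgb1 and Itgal, the selectin ligand Selplg and the hyaluronan receptor Cd44. Of these, 8 had enough reads to be tested among 7792 genes, and Cxcr5 did not. The libraries came from C57BL/6 mice aged 6 to 12 weeks, 3 of the wild-type (WT) genotype and 3 of the genotype ΔrsCBE, where Δ by convention marks a deletion that the labels do not describe further. Per the labels, cells were sorted as small pre-B from bone marrow, and the RNA was depleted of ribosomal RNA before stranded libraries were made. No treatment, transgene or Cre is named for either genotype, and nothing says whether the 3 libraries of a genotype came from separate mice, so p-values measure only the spread between these libraries.

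Developing B cells are held in the marrow by stromal cells that secrete the chemokine Cxcl12, which Cxcr4 senses, and that display Vcam1, which the integrin of Itga4 and Itgb1 binds. As cells mature, S1pr1 lets them follow sphingosine 1-phosphate into the blood, and Cxcr5 and Ccr7 later guide them into follicles and T-cell zones of lymphoid organs. Itgal, with Itgb2, forms the integrin LFA-1, which binds Icam proteins. Selplg presents glycans to selectins, and Cd44 binds hyaluronan in the matrix.

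Total counts per library lay between 428106 and 1300805, where the detection floor of 3 counts equals 2.31 to 7.01 CPM (counts scaled to a common library size, in parts of 1e6). All 13 genes of a pre-B list, Pax5, Rag1, Cd79a and Il7r among them, passed the count filter. By contrast, 10 of 13 T and NK cell genes and 9 of 11 erythroid and platelet genes had no count in any library. Summed marker levels were at most 4.9 CPM for T and NK cells, 2.38 CPM for erythroid cells and platelets and 19.4 CPM for stroma and endothelium. Markers of pro-B and large pre-B cells summed to 981 to 1010 CPM in WT and 912 to 1140 CPM in ΔrsCBE, most of it from Cd93. Of that list, Kit, Dntt, Igll1, Vpreb1, Vpreb2 and Flt3 had at most 10 counts each over all libraries. Plasma cell markers summed to 1130 to 1260 CPM in WT and 1130 to 1430 CPM in ΔrsCBE, most of it from Irf4. Myeloid markers summed to 56.2 to 90.7 CPM in WT and 69 to 75.8 CPM in ΔrsCBE, most of it from Itgam. Elane and S100a8 had 0 counts. Lyz2 (2, 4 and 2 counts) and S100a9 (2, 1 and 3 counts) were seen in ΔrsCBE alone. So were Mpo, Ctsg, Ngp and Camp, with at most 3 counts each in a library. Fcgr3 (1, 0 and 1 counts) was seen in WT alone, and Csf1r, Cd68 and Ltf in both genotypes. Xist counts were high in ΔrsCBE replicates 2 and 3 (1603 and 1430) and at most 1 elsewhere, so these 2 libraries had a female pattern and all WT libraries a male one. Sex and genotype therefore overlap, and values within the 4 male-pattern libraries, where ΔrsCBE replicate 1 stands alone and is taken to vary like WT, are given where they bear on a result. Sets of 3 values follow the order of replicates 1 to 3.

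Cxcr4 had by far the highest level of the 9 genes once counts were divided by exon length. On this scale (CPM per kb of exon, lengths from GENCODE M21 on GRCm38), Cxcr4 had a mean level of 295 ± 35 (SD over 6 libraries), above 99.2% of the tested genes with a known length. Its lowest library, 255, lay far above the highest library of any other member, 51.8 for S1pr1. Next came Itga4 with a level of 39.4 ± 3.67, S1pr1 with 35 ± 10.8, Cd44 with 34 ± 2.65 and Selplg with 27.1 ± 2.56 CPM per kb, and within these 4 genes each overlapped the next in the order. Below them, Ccr7 had a level of 17.1 ± 3.2 CPM per kb and did not overlap Selplg. Itgb1 had 10.7 ± 2.75 CPM per kb, close to the median of 11.4 over tested genes, and its range overlapped that of Ccr7. Within each of the 6 libraries, however, Ccr7 was above Itgb1 and Cd44 above Selplg on this scale. Itgal, with 3.11 ± 1.54 CPM per kb, and Cxcr5, with 1.51 ± 0.853, formed the low end and overlapped each other. The middle of this order depends on the gene length used, since dividing by the longest transcript puts Selplg (50 CPM per kb) ahead of Cd44 (41) and S1pr1 (35), whereas the first 2 and last 4 places stayed as they were.

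**Figure D1:**
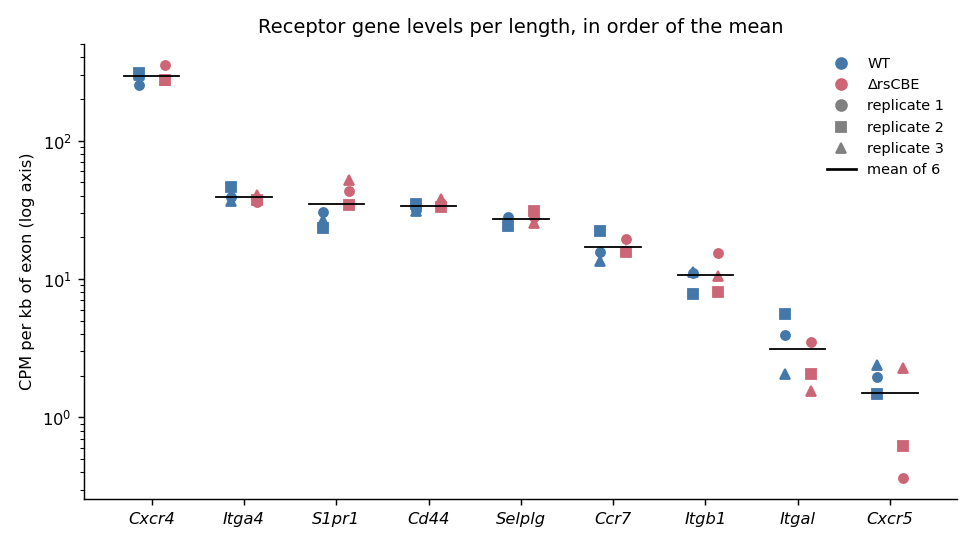
Level of each receptor gene in CPM per kb of exon (log axis), with each point 1 library (colour for genotype, shape for replicate) and the line the mean of 6 libraries. Cxcr4 stands at 295 CPM per kb, and Itgal and Cxcr5 stand at 3.11 and 1.51.

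The promoters of the 2 members with the highest levels are shown because they differ in their short motifs near the start site. RefSeq promoter windows (GRCm38.p6) were matched by symbol for 4 of the 9 members, namely Cxcr4, Itga4, Itgb1 and Cd44; Cxcr5, Ccr7, S1pr1, Itgal and Selplg had no entry. The 250 bases before the start are printed 5′ to 3′ on the strand of the gene, and capitals mark CACCC (the box of Krüppel-like factors, on either strand, where GGGTG is its reverse) and TATAAA (the TATA box, on either strand).
Cxcr4, chr1:128592300-128592549, minus strand: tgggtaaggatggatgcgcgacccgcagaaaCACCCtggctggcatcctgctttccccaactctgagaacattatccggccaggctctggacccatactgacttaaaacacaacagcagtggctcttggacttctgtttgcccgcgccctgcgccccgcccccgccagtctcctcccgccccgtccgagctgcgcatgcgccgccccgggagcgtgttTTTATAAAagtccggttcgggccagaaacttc
Itga4, chr2:79255176-79255425, plus strand: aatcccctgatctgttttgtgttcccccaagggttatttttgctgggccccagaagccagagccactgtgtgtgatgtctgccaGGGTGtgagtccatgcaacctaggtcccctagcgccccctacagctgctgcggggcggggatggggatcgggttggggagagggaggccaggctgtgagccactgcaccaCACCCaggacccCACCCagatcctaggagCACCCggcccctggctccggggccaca

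Cxcr4 held a TATAAA that begins 30 bases before the start, with an overlapping match on the other strand, and Itga4 held none. TATAAA occurred in 12.3% of 32536 distinct RefSeq promoter windows of the same length. Itga4 held 4 CACCC boxes, 3 of them within 56 bases of the start, whereas Cxcr4 held 1 at 219 bases before it. Itgb1 held 2 and Cd44 none, and 52.1% of all windows held at least 1. The AP-1 motif TGANTCA, found in 6.73% of all windows, was in none of the 4 windows. GAGGAA, the core that PU.1 binds, was in Itgb1 and Cd44 (23.4% of all windows), and the E-box CANNTG was in Itga4 (66.2% of all windows). Such matches describe letters and do not show that a factor binds.

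Between the genotypes, no member passed the threshold, and S1pr1 came closest. With edgeR (quasi-likelihood, Benjamini-Hochberg over all 7792 genes), 0 of the 8 tested members had an adjusted p under 0.05, against 1.69% of all tested genes. At an unadjusted p under 0.05 there was 1 member, S1pr1, against 10.2% of all tested genes, and DESeq2's Wald test likewise gave 0 at its adjusted and 1 at its unadjusted p. S1pr1 was also the 1 member whose libraries did not overlap between genotypes, which held for 16.1% of all tested genes. A count of 1 in 8 is near both backgrounds. The median log2 fold change was 0.09 over the 8 members and 0.01 over all tested genes. Estimates were above 0 for 6 of the 8 members and for 4034 of all 7792 tested genes.

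**Figure D2:**
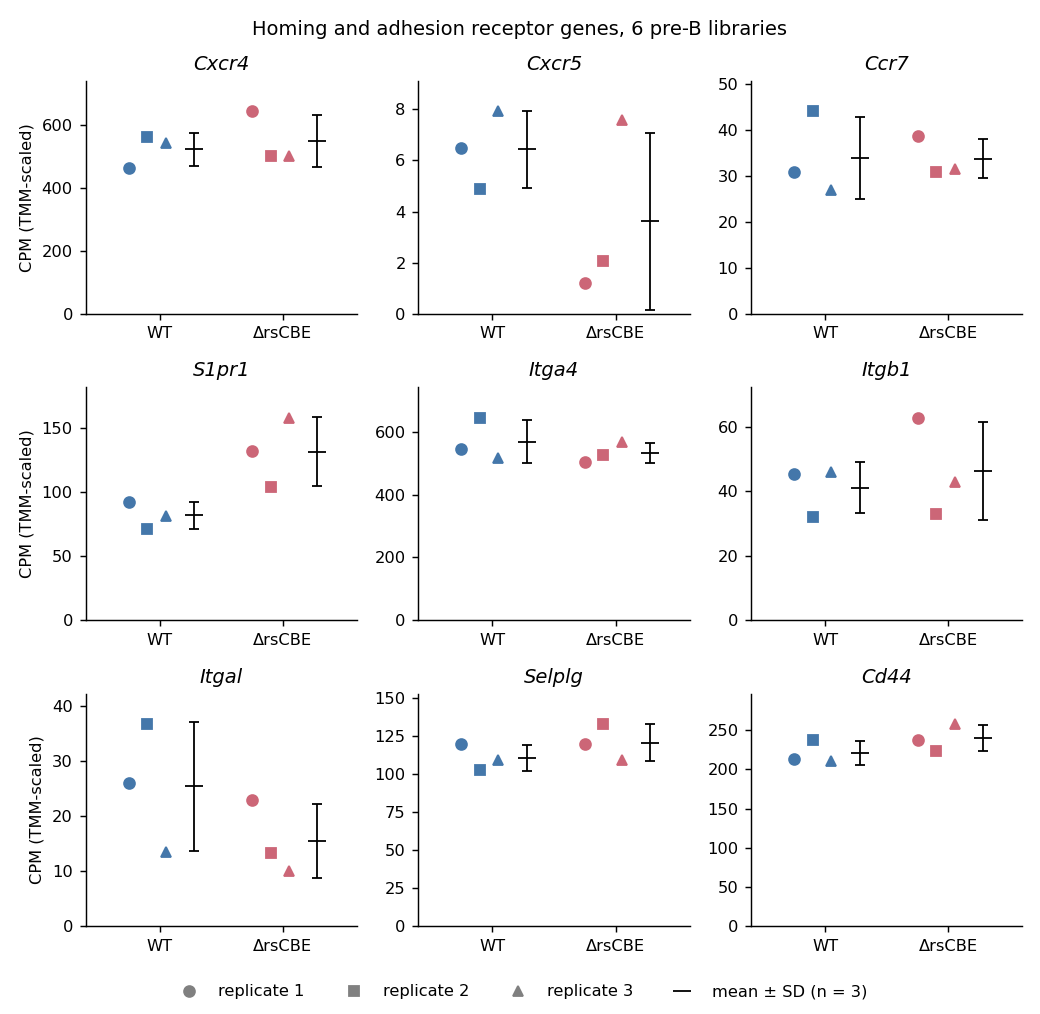
CPM of the 9 receptor genes in each library, by genotype (linear axes from 0), with replicates as shapes and the mean ± SD of 3 libraries beside them. S1pr1 is the gene whose ΔrsCBE libraries (104 to 158 CPM) all lie above its WT libraries (71.1 to 92.5 CPM).

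S1pr1 (ENSMUSG00000045092.8, chromosome 3, 115710433 to 115715072, minus strand) stood at 92.5, 71.1 and 81.6 CPM in the WT libraries and reached 132, 104 and 158 CPM in those of ΔrsCBE. Every ΔrsCBE library was above every WT library, and ΔrsCBE replicate 2 was the nearest to WT. WT averaged 81.7 ± 10.7 CPM and ΔrsCBE 131 ± 26.7 CPM (SD, n = 3). The fold fitted by edgeR, the kind given for each member, was 1.58 with a 95% interval of 1.22 to 2.05. On the log2 scale the difference was 0.66 (SE 0.18), its edgeR adjusted p was 0.0632, and it ranked 149 among all tested genes by p. Within the male-pattern libraries the difference was as large, 0.68, with 132 CPM in ΔrsCBE replicate 1 against at most 92.5 CPM in WT (edgeR adjusted p = 0.126). Loosening the count filter put S1pr1 past the threshold (edgeR adjusted p = 0.0241 unfiltered and 0.0168 where 3 libraries had to reach 1 CPM). Its unadjusted edgeR p also fell, from 0.00121 to 0.000202 and 0.000172, so the change was not only in the adjustment over genes. Single libraries also moved S1pr1, to an edgeR adjusted p of 0.00664 without ΔrsCBE replicate 2 and of 0.457, with a difference of 0.51, without ΔrsCBE replicate 3. Without WT replicates 1, 2 and 3 the edgeR adjusted p was 0.0916, 0.199 and 0.307, and without ΔrsCBE replicate 1 it was 0.087. DESeq2's Wald test gave an adjusted p of 0.216.

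Other gene groups moved with genotype in the same libraries. Cell-cycle genes summed to 5800 to 6480 CPM in WT, against 2510, 3900 and 2400 CPM in ΔrsCBE, and all 13 tested members of that list had estimates below 0, 11 of them past the threshold, against 1.69% of all tested genes. Early-response genes, which include Fos and Jun and react within minutes to handling, summed to 3120 to 3650 CPM in WT and to 6250, 4210 and 5810 CPM in ΔrsCBE, and all 10 tested members had estimates above 0, 3 of them past the threshold. In both sums, as for S1pr1, ΔrsCBE replicate 2 lay nearest to WT. Their part in the S1pr1 difference was not tested. Markers of immature and mature B cells, which carry more S1pr1, overlapped between genotypes at 882 to 1150 CPM in WT and 943 to 975 CPM in ΔrsCBE, and 0 of their 5 tested genes passed. The defining genes of mature B cells were near absent, with Ighd at 0 counts and Fcer2a and Cr2 at 4 counts each over 6 libraries. In such bulk samples fewer cells of a type and less RNA per cell cannot be told apart.

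Among the chemokine receptors, Cxcr4 was close in the 2 genotypes over all 6 libraries. Cxcr4 (ENSMUSG00000045382.6, chromosome 1, 128588199 to 128592293, minus strand) had WT values of 461, 562 and 541 CPM and ΔrsCBE values of 642, 501 and 499 CPM. The ranges overlapped, with the single highest value in ΔrsCBE replicate 1 and the lowest in WT replicate 1. The means, 521 ± 53.2 and 547 ± 81.7 CPM (SD, n = 3), came with a fitted fold of 1.05 and a 95% interval of 0.887 to 1.25 (edgeR adjusted p = 0.909). With 2606 counts in all, its interval was the narrowest but for that of Itga4. Within the male-pattern libraries, where ΔrsCBE replicate 1 stands alone, the log2 difference of Cxcr4 was 0.3, against 0.07 over all 6.

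Ccr7 (ENSMUSG00000037944.8, chromosome 11, 99144196 to 99155077, minus strand), the receptor for Ccl19 and Ccl21, had WT values of 30.8, 44.1 and 26.9 CPM and ΔrsCBE values of 38.7, 31.0 and 31.6 CPM. All ΔrsCBE values fell inside the WT range. The fold was 1.05, and its 95% interval of 0.709 to 1.56 is wide because the gene had 158 counts in all (edgeR adjusted p = 0.972). Cxcr5 (ENSMUSG00000047880.15, chromosome 9, 44511787 to 44561877, minus strand), the receptor for Cxcl13, had only 4, 2 and 10 counts in WT and 1, 2 and 6 counts in ΔrsCBE. Pooled over a genotype this was 7.0 CPM (exact Poisson 95% interval 4.0 to 11.4) in WT and 3.48 CPM (1.59 to 6.61) in ΔrsCBE, so a difference was not detectable at this depth. Cxcr5 overlaps Bcl9l on the opposite strand, which had 170 counts, and reads of the pair are uncertain because the strand setting of the counting is not stated.

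The integrin chains differed widely in level from each other, and none passed the test between genotypes. Itga4 (ENSMUSG00000027009.18, chromosome 2, 79255426 to 79333123, plus strand), the alpha chain of VLA-4, stood at 545, 645 and 516 CPM in WT libraries and at 505, 526 and 568 CPM in ΔrsCBE ones. The genotypes overlapped, with means of 569 ± 67.8 and 533 ± 32.4 CPM (SD, n = 3) and a fitted fold of 0.945 (95% interval 0.806 to 1.11, edgeR adjusted p = 0.88). Cerkl, which overlaps Itga4 on the opposite strand, had 15 counts in all against 2626 for Itga4.

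Itgb1 (ENSMUSG00000025809.15, chromosome 8, 128685654 to 128733200, plus strand), the beta chain that pairs with Itga4, stood at 45.4, 31.9 and 45.9 CPM in WT libraries and at 62.9, 33.1 and 42.9 CPM in ΔrsCBE ones. Replicate 1 of ΔrsCBE was the highest and the other libraries of both genotypes were mixed, so the fold of 1.08 had a 95% interval of 0.748 to 1.55 (edgeR adjusted p = 0.95). Within the male-pattern libraries, where ΔrsCBE replicate 1 stands alone, the log2 difference of Itgb1 was 0.56, against 0.11 over all 6. Per kb of exon, the mean level of Itga4 was 3.68 times that of Itgb1. The log2 ratio of Itga4 to Itgb1 counts within a library was 3.58, 4.34 and 3.49 in WT and 3.0, 3.99 and 3.73 in ΔrsCBE, a difference of -0.23 (two-sided exact permutation p = 0.6, where 0.1 is the smallest possible). Itgb7, which also pairs with Itga4, had 4 counts over all libraries.

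Itgal (ENSMUSG00000030830.18, chromosome 7, 127296260 to 127335138, plus strand) had low values, 26.0, 36.8 and 13.5 CPM for WT and 23.0, 13.4 and 10.1 CPM for ΔrsCBE. WT replicate 3 lay within the ΔrsCBE range and ΔrsCBE replicate 1 within the WT range, and only 88 counts stand behind the 6 values. The fold of 0.692 had a 95% interval of 0.39 to 1.23 (edgeR adjusted p = 0.732), and within the male-pattern libraries the log2 difference changed sign, from -0.53 to 0.06. For its partner Itgb2, WT averaged 71.8 ± 10.7 CPM and ΔrsCBE 84.9 ± 4.15 CPM (SD, n = 3; edgeR adjusted p = 0.764). The log2 ratio of Itgal to Itgb2 counts was -1.67, -0.74 and -2.4 in WT and -1.84, -2.62 and -3.15 in ΔrsCBE, a difference of -0.93 that the exact two-sided permutation test put at p = 0.2. Single libraries set the size of both values: without WT replicate 2 the difference in the ratio was -0.5 and that of Itgal was -0.23, and without WT replicate 3 they were -1.33 and -0.97.

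Selplg and Cd44 gave narrow, overlapping ranges in both genotypes. Selplg (ENSMUSG00000048163.13, chromosome 5, 113818536 to 113832644, minus strand), also known as PSGL-1, stood at 120, 103 and 109 CPM in WT libraries and at 120, 133 and 109 CPM in ΔrsCBE ones, with a fold of 1.09 (95% interval 0.865 to 1.37, edgeR adjusted p = 0.872). Cd44 (ENSMUSG00000005087.17, chromosome 2, 102811141 to 102901665, minus strand) stood at 213, 238 and 211 CPM in WT libraries and at 238, 224 and 258 CPM in ΔrsCBE ones, with a fold of 1.1 (95% interval 0.912 to 1.32, edgeR adjusted p = 0.802). Gm23731, on the opposite strand within Cd44, had no count.

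**Figure D3:**
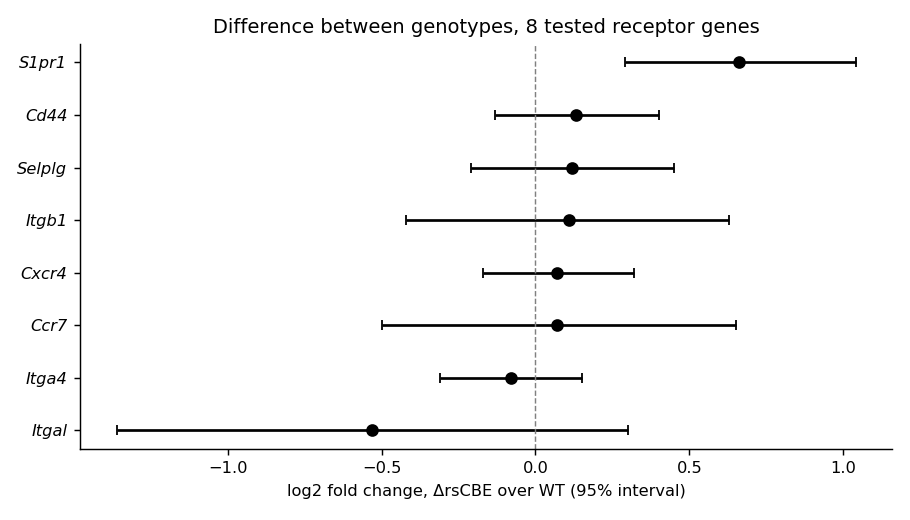
Log2 fold change of ΔrsCBE over WT for the 8 tested receptor genes (points) with 95% intervals from edgeR's quasi-likelihood fit (bars, not adjusted for the number of genes). The interval of S1pr1, 0.29 to 1.04, excludes 0, and the intervals of the other 7 genes include it.

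The members did not share one pattern over the libraries. As deviations of log2 CPM from each gene's mean over the 6 libraries, ΔrsCBE replicate 1 was above the mean in 7 of 8 members, all but Itga4, and ΔrsCBE replicate 2 in 2 of 8. WT replicate 2, the library with the fewest counts, was the highest library for 3 members (Ccr7, Itga4 and Itgal) and the lowest for 3 others (S1pr1, Itgb1 and Selplg). Itgal had the widest range, 1.64 on the log2 scale, followed by S1pr1 with 1.12 and Itgb1 with 0.93, while Cd44 spanned 0.29 and Itga4 0.35. Within WT the SD of log2 CPM was 0.10 for Cd44, 0.15 for Cxcr4 and 0.66 for Itgal.

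**Figure D4:**
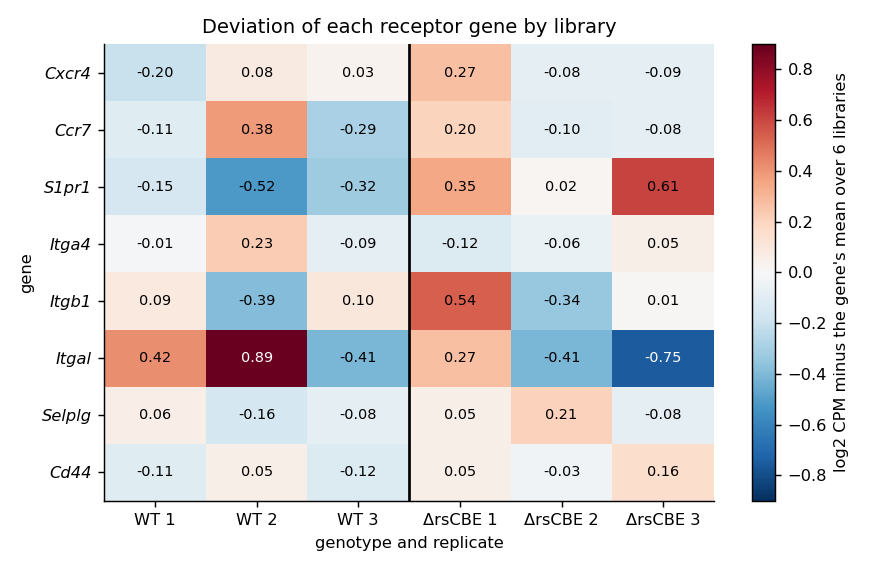
Deviation of log2 CPM from each gene's mean over 6 libraries, for 8 tested receptor genes (rows) in each library (columns, WT left of the line). S1pr1 is negative in the 3 WT libraries and positive in the 3 ΔrsCBE libraries, from -0.52 to 0.61; no other row is divided in this way.

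Likeness to other genes was measured as the root mean square difference between such deviations over the 6 libraries, against 7791 other tested genes. The gene nearest to S1pr1 was Josd2, with a difference of 0.069 on the log2 scale (the median gene stood at 0.45). Josd2 encodes a deubiquitinase and stood at 13.0, 9.81 and 11.9 CPM in WT libraries and at 21.8, 16.5 and 22.7 CPM in ΔrsCBE ones (edgeR adjusted p = 0.478). For Cxcr4 the nearest gene was Inpp5d (0.030), the inositol phosphatase SHIP-1, and for Itga4 it was Eif4e2 (0.024), a cap-binding protein. Cd44 was nearest to Zbtb18 (0.030), Selplg to Edc4 (0.033), Itgb1 to Susd6 (0.060) and Itgal to Rab29 (0.148). Among so many genes a close match over 6 libraries is easily found, and these distances are descriptions only. Between members the closest were Itga4 and Cd44, 0.121 apart.

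The other genes of homing and adhesion were followed in 5 lists with 134 genes, of which 84 were tested. Klf2 alone of the 84 passed the threshold, in the higher direction, and 0 genes passed in the lower. Of all 7792 tested genes 1.69% passed, 16 in the higher direction and 116 in the lower. An unadjusted p under 0.05 was found for 8 of the 84, where the share over all tested genes was 10.2%. The genotypes did not overlap for 19 of the 84, against 16.1% of all tested genes. The median log2 fold change of the 84 genes was 0.05. Klf2, a Krüppel-like transcription factor known in lymphocytes as an activator of S1pr1, rose from 238, 248 and 259 CPM in WT to 329, 402 and 416 CPM in ΔrsCBE. Its means were 248 ± 10.2 and 382 ± 46.4 CPM (SD, n = 3), a log2 difference of 0.62 (SE 0.12, edgeR adjusted p = 0.00533). The call was lost without ΔrsCBE replicate 3 (0.55, edgeR adjusted p = 0.0755) and with the sex pattern as a covariate or in the male-pattern libraries alone (0.40 in both, edgeR adjusted p = 0.271 and 0.27).

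Klf2 belonged to the list of genes that set, pass on or dampen receptor signals. Of its 39 genes 32 were tested, with a median log2 fold change of 0.07. Estimates were above 0 for 22 of the 32, and for 4034 of all 7792 tested genes. Rgs2, which speeds the shut-off of G proteins, stood at 706, 721 and 563 CPM in WT libraries and at 928, 850 and 844 CPM in ΔrsCBE ones. Its log2 difference of 0.41 (SE 0.11) was just short of the threshold (edgeR adjusted p = 0.0519). Rgs2 passed without ΔrsCBE replicate 2 (edgeR adjusted p = 0.0408), whereas without WT replicate 3 its difference was 0.3 (edgeR adjusted p = 0.446). Vav1, an exchange factor for Rac, had 298 ± 6.02 and 367 ± 16.2 CPM (SD, n = 3; edgeR adjusted p = 0.283). Cd69, which binds S1pr1 and removes it from the cell surface and which is also an early-activation gene, stood at 198, 108 and 178 CPM in WT libraries and at 247, 156 and 280 CPM in ΔrsCBE ones, with overlapping groups and a log2 difference of 0.45 (edgeR adjusted p = 0.542). For Cd69 the difference was 0.66 and past the threshold without ΔrsCBE replicate 2 (edgeR adjusted p = 0.0187), 0.27 without ΔrsCBE replicate 3 and 0.28 without WT replicate 2. Foxo1, an activator of Il7r and Rag genes, had 645 ± 24.5 and 729 ± 106 CPM (SD, n = 3, edgeR adjusted p = 0.638). Its log2 difference was 0.18 over all 6 libraries and 0.4 within the male-pattern ones, where ΔrsCBE replicate 1 stands alone.

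**Figure D5:**
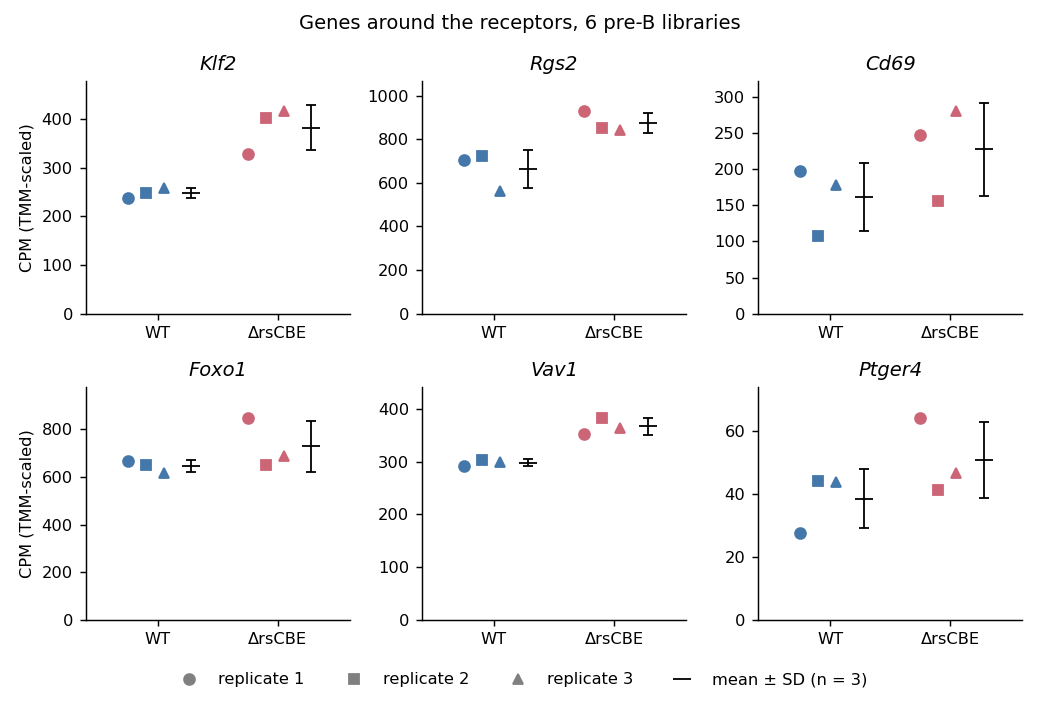
CPM of 6 genes around the receptors in each library, by genotype (linear axes from 0), with replicates as shapes and the mean ± SD of 3 libraries. Klf2, Rgs2 and Vav1 do not overlap between genotypes, whereas Cd69, Foxo1 and Ptger4 do.

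Of 16 other chemoattractant receptors only 3 passed the count filter, and Cxcr3, Cxcr6, Ccr2, Ccr9 and S1pr5 had no count in any library. The tested ones were Ptger4, S1pr4 and Cnr2, receptors for prostaglandin E2, sphingosine 1-phosphate and cannabinoids. They had log2 differences of 0.38, 0.05 and 0.00 (edgeR adjusted p = 0.666, 0.978 and 0.999). Among 17 other integrin chains 6 were tested, with a median log2 difference of -0.07. Itga9 had 74.3 ± 14.1 and 99.5 ± 14 CPM, and Itga6, a laminin receptor chain, had 37.9 ± 3.16 and 28.5 ± 2.3 CPM (SD, n = 3; edgeR adjusted p = 0.515 and 0.622). Of the 2, only Itga6 kept the genotypes apart.

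Of 31 genes that switch integrins on or off 23 were tested and 0 passed, with a median log2 difference of 0.11. In edgeR 3 had an unadjusted p under 0.05, near the 10.2% of all tested genes (1.69% passed after adjustment). By the smallest p these were Sharpin, an inhibitor of integrin activation (0.43), Fermt3, the kindlin that binds integrin beta tails (0.36), and Evl, an actin regulator (0.31); their edgeR adjusted p was 0.426, 0.432 and 0.445. Fermt3 rested on 1 library, with 330 CPM in ΔrsCBE replicate 1 against 178 to 206 CPM in the other 5; without it the difference was 0.10. With the sex pattern as a covariate, where that library alone carries the genotype effect, Fermt3 passed the threshold at 0.79 (edgeR adjusted p = 0.00832). Of 31 genes for selectin ligands, their glycans and membrane anchors 20 were tested and 0 passed, with 1 at an unadjusted p under 0.05 in edgeR and a median of -0.10. That gene was Cd24a, a surface protein of B precursors, for which WT averaged 2020 ± 197 CPM and ΔrsCBE 1700 ± 97.5 CPM (SD, n = 3; edgeR adjusted p = 0.268). St3gal6, a sialyltransferase for selectin ligands, and C1galt1c1, the chaperone of core O-glycan synthesis, had log2 differences of 0.74 and -0.69 on 66 and 61 counts (edgeR adjusted p = 0.581 and 0.618). Fut7, which completes the selectin-binding glycan on Selplg, had no count in any library, and Fut4 had 7.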

How the data were processed

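Raw read counts per gene symbol were deposited by the authors, without normalization. Per the submitters' processing notes, Trim Galore 0.6.10, STAR 2.7.11, HTSeq and DESeq2 were used with the build mm10; roles, annotation and strand setting are not given in the sources used here. Each column was matched to a library by the library name in the labels. Genes were filtered with filterByExpr (minimum count 10), scaled by TMM (factors 0.978 to 1.02) and tested with edgeR 4.0.16 in R 4.3.3 (glmQLFit, robust, glmQLFTest, genotype alone), with Benjamini-Hochberg adjustment over 7792 genes and a threshold of 0.05. Standard errors come from the F statistic. In simulated counts of 7570 genes the fit recovered 70.8% of genes changed by a log2 fold of 1 and 98.9% of those changed by 2. It also called 14 genes that had not been changed. Recovery of smaller changes, such as those estimated for the receptor genes (-0.53 to 0.66), was not tested. Levels per kb used union exon lengths from GENCODE M21. Intervals cover counting error where Poisson is named, and reads lacking molecular identifiers are not separate molecules. Total counts were 428106 to 1300805.

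The members, lists and tests were chosen with earlier results of these data known. Named besides the members are list genes past the threshold, the 3 tested genes of each list with the smallest p, the gene nearest to each member, and Itgb2, Itgb7, Klf2, Foxo1 and Cd69; some genes that this rule covers are not reported here. Replicates differed by more than sampling noise (chi-square 1.78 to 3.18 per degree of freedom). Alternatives were other scalings (DESeq2 size factors, library size), DESeq2 1.42.0, other filters, a threshold of 0.1, each library left out, the replicate number as a block and a sex covariate; the male-pattern libraries alone were added after the data were seen. Exact permutation tests used scipy 1.17.1.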

Additional observations from a re-analysis of the deposited data

How the results depend on the processing

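The estimate for S1pr1 stayed above 0 in all 15 alternatives, from 0.51 to 0.81, as did those for Selplg and Cd44. The threshold of 0.1 uses the estimates of the main fit again. Because the S1pr1 libraries did not overlap between genotypes, leaving a library out could hardly turn its sign. The count of receptor genes called went from 0 to 1, S1pr1, with no count filter, with 1 CPM required in 3 libraries, at a threshold of 0.1 and with the replicate block, and ranged from 0 to 1 with each library left out. Same-numbered libraries did not deviate together (correlations 0.00908 to 0.0197), so the replicate block, under which S1pr1 had an edgeR adjusted p of 0.0419 and 136 genes in all were called, is not a pairing of samples; 2 of 3 WT libraries correlated best with a different number. Of the 5 homing lists 1 gene was called, and 2 (Klf2 and Rgs2) with library size alone, with DESeq2's Wald test, with both other filters and at a threshold of 0.1. With the sex covariate the 1 gene called was Fermt3 in place of Klf2, in the male-pattern libraries alone the 2 were Fermt3 and Rgs2, and the range with each library left out was 0 to 3 (Cd69, Klf2 and Rgs2 without ΔrsCBE replicate 2). Over all genes 132 were called, 87 with the sex covariate, where ΔrsCBE replicate 1 alone carries the genotype effect, and 59 to 187 with each library left out (59 without WT replicate 3 or ΔrsCBE replicate 3). The cause of these shifts was not tested.

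Several small differences changed sign. With the sex covariate and in the male-pattern libraries Itgal moved to 0.05 and 0.06 and Evl to -0.04 in both, and with the replicate block Cnr2 moved to -0.01. With each library left out, log2 differences ranged from -0.06 to 0.13 for Cxcr4, -0.11 to 0.25 for Ccr7, -0.15 to 0.02 for Itga4, -0.18 to 0.32 for Itgb1, -0.97 to -0.23 for Itgal, -0.11 to 0.24 for S1pr4, -0.11 to 0.09 for Cnr2, -0.18 to 0.02 for Eif4e2, -0.25 to 0.18 for Susd6 and -0.02 to 0.15 for Inpp5d. The difference in the Itga4 to Itgb1 ratio ranged from -0.44 to 0.05 and that in the Itgal to Itgb2 ratio from -1.33 to -0.5. Levels divided by the longest transcript were 56.4 for Itga4, 50 for Selplg and 41 CPM per kb for Cd44. Depth limits Cxcr5, Itgal, Ccr7 and Itgb1 most.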

Other observations

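Some further genes kept the genotypes apart, as did 16.1% of all tested genes, and were singled out after their values were seen. S1pr3 and Rgs1 lay below the count filter. So did Itga3 and Selp, with 10 and 6 counts in all, which kept the genotypes apart in the lower direction. S1pr3, another sphingosine 1-phosphate receptor, had 5, 2 and 7 counts in WT and 10, 15 and 12 counts in ΔrsCBE replicates 1 to 3, or 8.11, 4.9 and 5.54 CPM against 12.1, 15.5 and 15.2 CPM. In the edgeR fit with no filter, over 17435 genes, its log2 difference was 1.2 (SE 0.52) with an edgeR adjusted p of 0.553. Rgs1, a dampener of chemokine receptor signals, had 2, 1 and 3 counts in WT and 8, 5 and 4 counts in ΔrsCBE (edgeR adjusted p = 0.751 in the same fit). Klf4, a further Krüppel-like factor that belonged to none of the homing lists, had 153, 115 and 131 CPM in WT and 297, 178 and 285 CPM in ΔrsCBE. Its log2 difference was 0.91 (SE 0.17, edgeR adjusted p = 0.00366). Values of Klf4 under the alternatives are not reported here.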
